A study of Mus musculus with 17 samples.

Results

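The genes described here are 10 members of the transforming growth factor beta (TGF-β) family and of the receptors of its superfamily, measured in mouse bone marrow-derived macrophages. They were taken by name from the 37620 gene rows of the deposited table: the ligand genes Tgfb1, Tgfb2 and Tgfb3, the type I receptor genes Tgfbr1, Acvrl1, Acvr1b and Bmpr1a, the type II receptor genes Tgfbr2 and Bmpr2, and the co-receptor gene Tgfbr3. All 10 were found. Bone marrow cells were grown for 7 days in macrophage colony-stimulating factor (M-CSF, 50 ng/ml), and the treated cells then received TGF-β1 (5 ng/ml) for 5 days. The 17 RNA sequencing libraries fell into 4 groups by title: 3 libraries labelled Smad3 knockout (KO) with TGF-β1, 5 labelled KO control, 4 labelled Smad3 wild type (WT) with TGF-β1 and 5 labelled WT control. C57BL/6J is given as the strain on every label. All groups share the M-CSF culture, and the labels do not say whether control cells spent the 5 later days in culture, nor name an animal, a culture or a batch. The protocol text on TGF-β1 is the same on every library, so titles and the treatment label alone separate treated from control. The study's text describes sorting F4/80 cells by smooth muscle actin, and the labels tie no library to a sort.

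TGF-β ligands are secreted in a latent form, and once released they bind the type II receptor TGFBR2, which then recruits and phosphorylates the type I receptor TGFBR1. TGFBR1 in turn phosphorylates Smad2 and Smad3, which enter the nucleus with Smad4. ACVRL1 is a second type I receptor for this family, known best from endothelium, while ACVR1B serves activins and BMPR1A and BMPR2 serve bone morphogenetic proteins. TGFBR3, or betaglycan, presents ligand to the signalling receptors. Macrophages are known both as a source of TGF-β1 and as cells that respond to it.

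Few of the ligand and receptor genes were detected broadly. Tgfbr1 was found at 1 TPM or more in all 17 libraries (TPM is a length-corrected share of a library's transcripts), Tgfbr2 and Acvrl1 in 13 each, Tgfb1 in 7, Acvr1b in 5, Bmpr2 in 3, Tgfb3 in 2, Tgfb2 in 1, and Bmpr1a and Tgfbr3 in none. Of the 10 members, 6 reached TPM 1 in at least 3 libraries and were tested. None of them differed by treatment or by Smad3 label past the test's threshold in any of 7 comparisons. Tgfb2, Tgfb3, Bmpr1a and Tgfbr3 were too sparse for the main test. Whether each library holds a single cell or a pool is unclear from the labels. In a pool, fewer cells that express a gene and less of its RNA per cell cannot be told apart.

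RefSeq promoter entries (GRCm38.p6) were held for 7 of the 10 members, and 4 are shown because their genes span the detection range from every library to a single one. Each stretch is the 250 bases before the annotated start, read 5′ to 3′ on the gene's strand. Capitals mark the searched motifs, which are the GC box GGGCGG, the TATA box TATAAA and the Smad-binding core CAGAC, each on either strand.
Tgfbr1 promoter, chr4:47352972-47353221, plus strand: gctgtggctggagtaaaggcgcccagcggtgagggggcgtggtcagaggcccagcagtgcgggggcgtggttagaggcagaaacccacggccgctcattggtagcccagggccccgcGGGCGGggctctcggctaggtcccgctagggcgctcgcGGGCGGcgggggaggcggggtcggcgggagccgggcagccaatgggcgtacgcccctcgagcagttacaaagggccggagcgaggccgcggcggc
Tgfbr2 promoter, chr9:116175364-116175613, minus strand: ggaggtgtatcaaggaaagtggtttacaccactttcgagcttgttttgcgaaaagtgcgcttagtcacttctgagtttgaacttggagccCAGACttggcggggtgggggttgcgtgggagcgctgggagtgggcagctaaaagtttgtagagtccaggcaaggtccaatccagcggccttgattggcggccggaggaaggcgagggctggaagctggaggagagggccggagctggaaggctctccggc
Tgfb1 promoter, chr7:25686752-25687001, plus strand: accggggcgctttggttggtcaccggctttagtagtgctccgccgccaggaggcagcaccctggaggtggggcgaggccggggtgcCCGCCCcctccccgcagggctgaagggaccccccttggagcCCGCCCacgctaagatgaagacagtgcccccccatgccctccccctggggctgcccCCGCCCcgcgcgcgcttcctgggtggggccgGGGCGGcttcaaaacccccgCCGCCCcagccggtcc
Tgfb2 promoter, chr1:186705990-186706239, minus strand: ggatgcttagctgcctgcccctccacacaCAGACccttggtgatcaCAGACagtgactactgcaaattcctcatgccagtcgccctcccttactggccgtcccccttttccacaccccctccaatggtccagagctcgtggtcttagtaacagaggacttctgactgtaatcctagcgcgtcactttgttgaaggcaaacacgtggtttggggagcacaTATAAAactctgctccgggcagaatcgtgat

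The window of Tgfbr1, the gene found in every library, had a GC content of 74.8% with 29 CpG dinucleotides and 2 GC boxes. The window of Tgfb1, whose transcript was low in most libraries, was as GC-rich, at 75.2% with 21 CpG dinucleotides and 5 GC boxes. Tgfbr2 had a GC content of 58.4%, no GC box and 1 CAGAC. Tgfb2, all but undetected, had a GC content of 53.6%, 1 TATA box and 2 CAGAC; its window precedes a start that is not the outermost one annotated. The other members with an entry were Acvr1b, Bmpr1a and Bmpr2, at TPM 1 or more in 5, 0 and 3 libraries. Their windows had GC contents of 78.8%, 78.8% and 64%, with 4, 4 and 1 GC boxes. The Bmpr1a window also precedes a start that is not the outermost one. Of 32851 windows of the same length, 32.7% held a GC box, 12.4% a TATA box and 42.2% a CAGAC. These matches describe letters in the window only. Tgfbr1 also has an annotated internal start, and the deposited values per gene do not separate transcripts by start.

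Before the results, the libraries themselves set limits. Smad3 transcript, the check of the genotype labels, reached TPM 1 in 3 of 8 libraries labelled KO (highest 22.3 TPM) and in 2 of 9 labelled WT (highest 15.4 TPM), and was listed at 0 in all 4 libraries labelled WT with TGF-β1. Values per gene do not show whether the deleted part was transcribed, so KO and WT are used below as labels only. Between 7269 and 10307 genes reached TPM 1 per library, and 6 libraries listed over 10% of moderately expressed genes (mean 10 to 50 TPM in the rest of their group) at 0. TPM keeps no read depth, so depth is unknown. The 20 housekeeping genes examined were never listed at 0. All 8 macrophage markers reached TPM 1 in at least 1 library and summed to 7699 to 43305 TPM per library, a sum carried mostly by Lyz2, while Mertk reached TPM 1 in only 6 of 17 libraries and was at most 0.02 TPM in libraries labelled WT with TGF-β1. Of the other cell types, Col1a1, Col3a1, Dcn, Pdgfra and Lum (fibroblasts), Ppbp, Gp9, Gp1bb and Gp5 (platelets), and Cd3e, Cd79a, Ms4a1 and Nkg7 (lymphocytes) were listed at 0 in every library, as were 6 of 7 neutrophil markers. The remaining markers of these lists were not all at 0. Pdgfrb (fibroblast list) reached 9.72 TPM in WT TGF-β1 library 4 and 1.93 TPM in KO control 5, Itga2b (platelet list) 25.7 TPM in KO TGF-β1 library 3, S100a8 (neutrophil list) 132 TPM in a WT control, and Cd3d (lymphocyte list) at most 1.97 TPM, with values above 0 in 15 libraries. The 5 dendritic cell markers summed to at most 5.25 TPM.

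Among the ligand genes, Tgfb1 (ENSMUSG00000002603, chromosome 7), which encodes the ligand added to the treated cultures, was low in the deposited values. The gene models behind those values are not given in the sources used here, and whether they bear on this level was not tested. Its level was 3.03, 5.49 and 0.30 TPM in libraries 1 to 3 labelled KO with TGF-β1, and 1.49, 0.59, 5.66, 0.05 and 0.02 TPM in KO controls 1 to 5. In libraries labelled WT it was 2.24, 2.85, 0.10 and 0.47 TPM with TGF-β1, and 15.5, 0.91, 0.33, 0.15 and 0.11 TPM in controls. The value was never 0, every group overlapped every other, and the highest library was WT control 1. Over the 17 libraries the mean was 2.31 ± 3.86 TPM (SD), and 12.4% of the 12158 genes tested had a lower mean.

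Tgfb3 (ENSMUSG00000021253, chromosome 12) was detected in only 2 of the 17 libraries, both labelled WT with TGF-β1. Its level was 0 TPM in all 3 libraries labelled KO with TGF-β1 and in all 5 KO controls, 3.27, 18.2, 0 and 0 TPM in libraries 1 to 4 labelled WT with TGF-β1, and 0 TPM in all 5 WT controls. It did not pass the filter of TPM 1 in at least 3 libraries. In libraries labelled WT with TGF-β1 it averaged 5.37 ± 8.70 TPM (SD, n = 4). A limma fit of 19835 genes with no such filter gave an adjusted p of 0.901 for KO against WT with TGF-β1. For TGF-β1 against control in libraries labelled WT its adjusted p was 0.591. The SD of log2(TPM + 1) was 2.04 in libraries labelled WT with TGF-β1 and 0 in every other group. The fit shares 1 spread over all groups, so it understates the spread of this group and cannot decide whether Tgfb3 differed. The same 2 libraries held Tgfb1 at TPM 1 or more, so the transcripts were found together there.

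Tgfb2 (ENSMUSG00000039239, chromosome 1) reached 1.15 TPM in KO control 1, 0.02 TPM in KO library 1 with TGF-β1 and in WT control 4, and was listed at 0 in the other 14 libraries. Any ligand gene was at TPM 1 or more in 2 of 3 libraries labelled KO with TGF-β1, 2 of 5 KO controls, 2 of 4 labelled WT with TGF-β1 and 1 of 5 WT controls. The ligand transcript was thus below TPM 1 in 10 of 17 libraries for Tgfb1, 16 for Tgfb2 and 15 for Tgfb3.

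**Figure D1:**
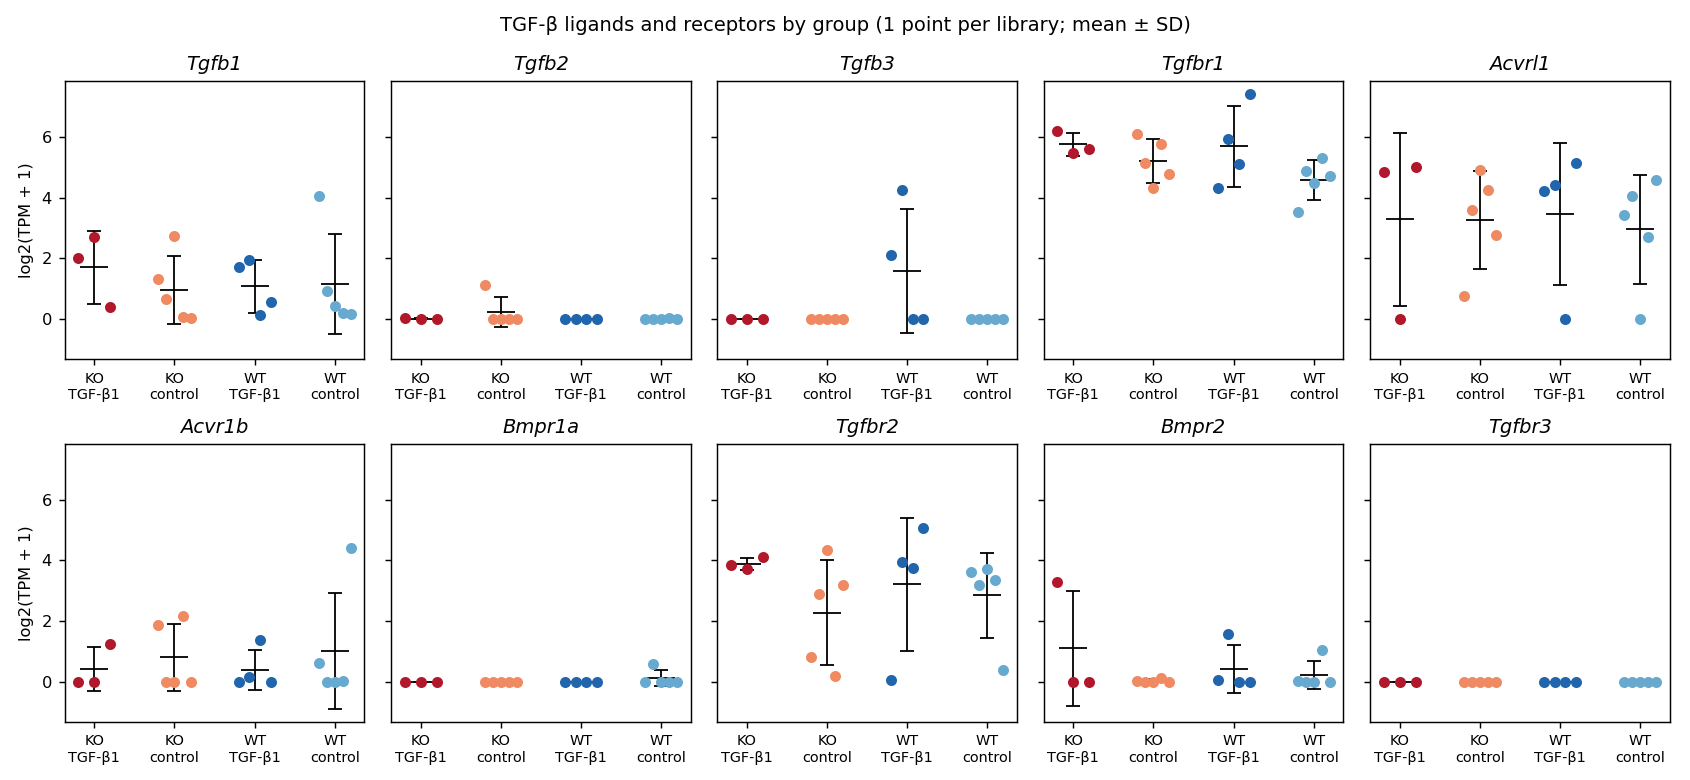
Levels of the 10 genes as log2(TPM + 1) (y axis) in the 4 groups by label (x axis), with 1 point per library and black bars for mean ± SD. Tgfbr1 lies at or above 10.45 TPM in all 17 libraries, Acvrl1 and Tgfbr2 each have 4 libraries below 1 TPM, and Tgfb3 is above 0 in only 2 libraries, both WT with TGF-β1.

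Among type I receptor genes, Tgfbr1 (ENSMUSG00000007613, chromosome 4), the receptor kinase that activates Smad2 and Smad3, had the highest level of all members. It stood at 72.4, 42.8 and 47.5 TPM in libraries labelled KO with TGF-β1, and at 66.7, 34.2, 18.7, 53.6 and 26.3 TPM in KO controls. Under the WT label it stood at 18.7, 59.7, 33.8 and 171 TPM with TGF-β1, and at 10.45, 28.4, 21.1, 38.6 and 25.5 TPM in controls. The highest library was WT TGF-β1 library 4 and the lowest WT control 1. The groups overlapped in each comparison by treatment within a label or by label within a treatment. Between the groups that differ in both, all 3 libraries labelled KO with TGF-β1 lay above all 5 WT controls, as held in that direction for 2.85% of tested genes. The mean over 17 libraries was 45.3 ± 36.9 TPM (SD), and 73.4% of tested genes had a lower mean.

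Acvrl1 (ENSMUSG00000000530, chromosome 15), the receptor also called ALK1, was either clearly present or near 0. Its level was 27.8, 0 and 31.1 TPM in libraries labelled KO with TGF-β1, and 0.69, 11.2, 28.9, 18.02 and 5.84 TPM in KO controls. The WT-labelled libraries had 17.8, 20.3, 0 and 34.6 TPM with TGF-β1, and 9.67, 15.7, 0, 5.56 and 22.8 TPM in controls. The 13 libraries with the transcript started at 5.56 TPM and the other 4 ended at 0.69 TPM, with each group holding exactly 1 of the low ones. Because ACVRL1 is best known from endothelium, endothelial markers were read beside it. Pecam1, Cdh5, Tek and Emcn were listed at 0 in all 17 libraries, while Kdr reached TPM 1 in 10 and Vwf in 16. The 6 markers summed to 1.43 to 35.3 TPM in libraries labelled KO with TGF-β1, 25.6 to 51.8 in KO controls, 12.3 to 48.0 in libraries labelled WT with TGF-β1 and 20.1 to 58.9 in WT controls.

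The remaining type I members were sparse. Acvr1b (ENSMUSG00000000532, chromosome 15), the activin receptor also called ALK4, stood at 0, 0 and 1.36 TPM in libraries labelled KO with TGF-β1, and at 2.64, 0, 0, 3.48 and 0 TPM in KO controls. The libraries labelled WT held 0, 0.10, 1.61 and 0 TPM with TGF-β1, and 0.53, 0, 0, 0.02 and 20.1 TPM in controls. WT control 5 alone was above 5 TPM. Bmpr1a (ENSMUSG00000021796, chromosome 14) was at 0.49 TPM in WT control 2 and listed at 0 in the other 16 libraries.

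Summed over the 4 type I members, a library held 20.6 to 206 TPM, with a median of 45.4. Acvr1, a type I receptor gene outside the members, was not in this sum and ran from 0 to 28.2 TPM over the 17 libraries. Tgfbr1 supplied most of the sum of the 4 members in 15 of 17 libraries, with a share of 37.3% to 100% and a median of 74.5%. The exceptions were KO control 3, where Acvrl1 made up 60.7% of the sum, and WT control 5, where Acvrl1 made up 33.3% and Acvr1b 29.4%. Median Tgfbr1 shares by group were 72.3% in libraries labelled KO with TGF-β1, 75.4% in KO controls, 78.8% in libraries labelled WT with TGF-β1 and 63.7% in WT controls.

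**Figure D2:**
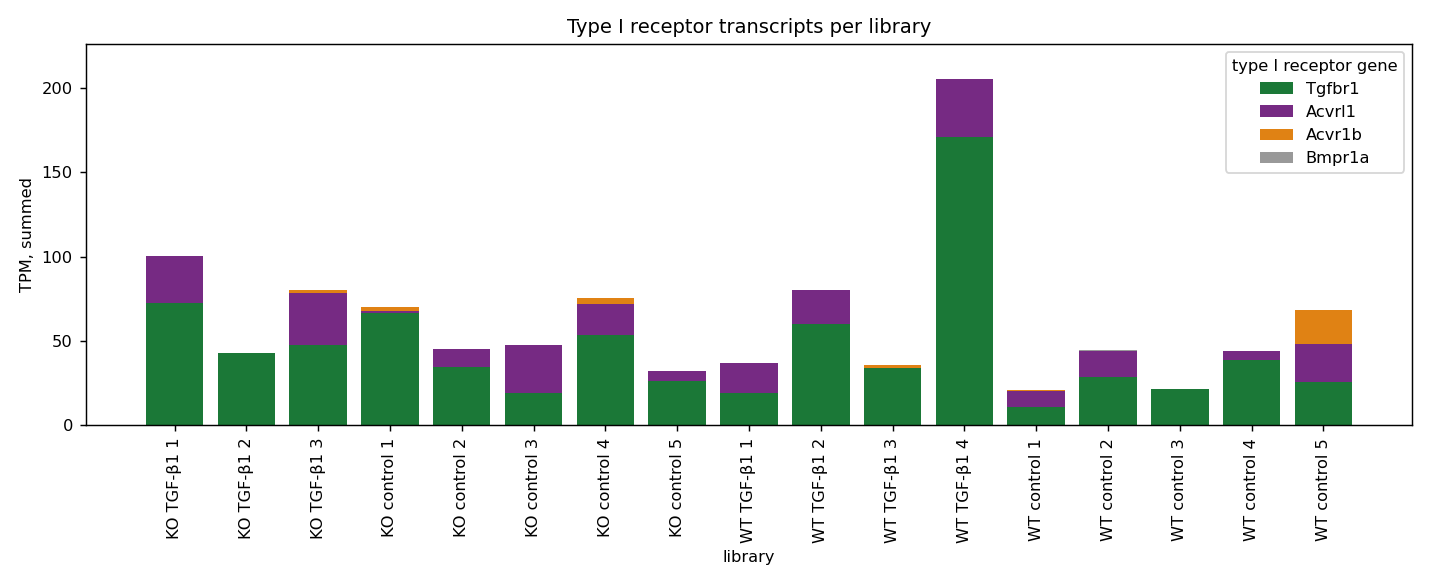
TPM of the 4 type I members (y axis, stacked) in each of the 17 libraries (x axis), with 1 color per gene. Type I receptor genes outside the members, such as Acvr1, are not in the bars. Tgfbr1 fills most of the bar in 15 libraries, the tallest bar is WT TGF-β1 library 4 at 206 TPM, and Bmpr1a is too low to be seen.

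Of the type II receptor genes, Tgfbr2 (ENSMUSG00000032440, chromosome 9), the receptor that binds the ligand first, was also present or near absent by library. Its level was 13.2, 12.01 and 16.2 TPM in libraries labelled KO with TGF-β1, and 0.74, 6.39, 19.1, 0.13 and 8.0 TPM in KO controls. Under the WT label it was 0.03, 14.3, 12.5 and 32.7 TPM with TGF-β1, and 11.15, 8.08, 11.98, 9.29 and 0.29 TPM in controls. The 13 libraries with the transcript started at 6.39 TPM and the other 4 ended at 0.74 TPM. The low libraries were KO controls 1 and 4, WT TGF-β1 library 1 and WT control 5. All 3 libraries labelled KO with TGF-β1 held the transcript and lay close together, within the range of the KO controls. They also lay above all 5 WT controls, by 12.01 against 11.98 TPM at the closest. The same held in that direction for 2.85% of tested genes. The mean over 17 libraries was 10.4 ± 8.21 TPM (SD), and 39.3% of tested genes had a lower mean.

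Bmpr2 (ENSMUSG00000067336, chromosome 1), the type II receptor for bone morphogenetic proteins, stood at 8.70, 0 and 0 TPM in libraries labelled KO with TGF-β1, and at 0.01, 0, 0, 0.09 and 0 TPM in KO controls. The WT-labelled libraries had 0.03, 2.00, 0 and 0 TPM with TGF-β1, and 0.02, 0, 0, 1.08 and 0 TPM in controls. A single library in each of 3 groups thus reached TPM 1. Tgfbr3 (ENSMUSG00000029287, chromosome 5), the co-receptor, was listed at 0 in all 17 libraries.

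Ordered by mean log2(TPM + 1) over the 17 libraries, the genes ran Tgfbr1, Acvrl1, Tgfbr2, Tgfb1, Acvr1b, Tgfb3, Bmpr2, Tgfb2, Bmpr1a and Tgfbr3. Between neighbours, only the steps from Tgfbr1 to Acvrl1 (2.02 on the log2 scale, larger SD 1.88) and from Tgfbr2 to Tgfb1 (1.77, larger SD 1.57) exceeded the spread between libraries. Acvrl1 and Tgfbr2 differed by 0.28 in mean log2 level, with a larger SD of 1.88. Within each gene, no neighbouring groups in the order of group means differed by more than the larger of their SDs.

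Receptor transcripts were then read library by library. Tgfbr1 and Tgfbr2, the pair that forms the canonical TGF-β receptor, were both at TPM 1 or more in 13 of 17 libraries: 3 of 3 labelled KO with TGF-β1, 3 of 5 KO controls, 3 of 4 labelled WT with TGF-β1 and 4 of 5 WT controls. All 3 of Tgfbr1, Tgfbr2 and Acvrl1 were found in 10 libraries, exactly 1 of Tgfbr2 and Acvrl1 in 6, and neither in 1, which was KO control 1. The ligand Tgfb1 accompanied both receptors of the pair in 5 libraries. Within a library Tgfbr1 was above Tgfbr2 in 15 of 17 and above Acvrl1 in 16 of 17, while Acvrl1 was above Tgfbr2 in 10. Where Tgfbr2 reached TPM 1, the ratio of Tgfbr1 to Tgfbr2 TPM ran from 0.937 to 5.48 with a median of 3.51. A library held 2 to 6 of the 10 genes at TPM 1 or more, with a median of 3.

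**Figure D3:**
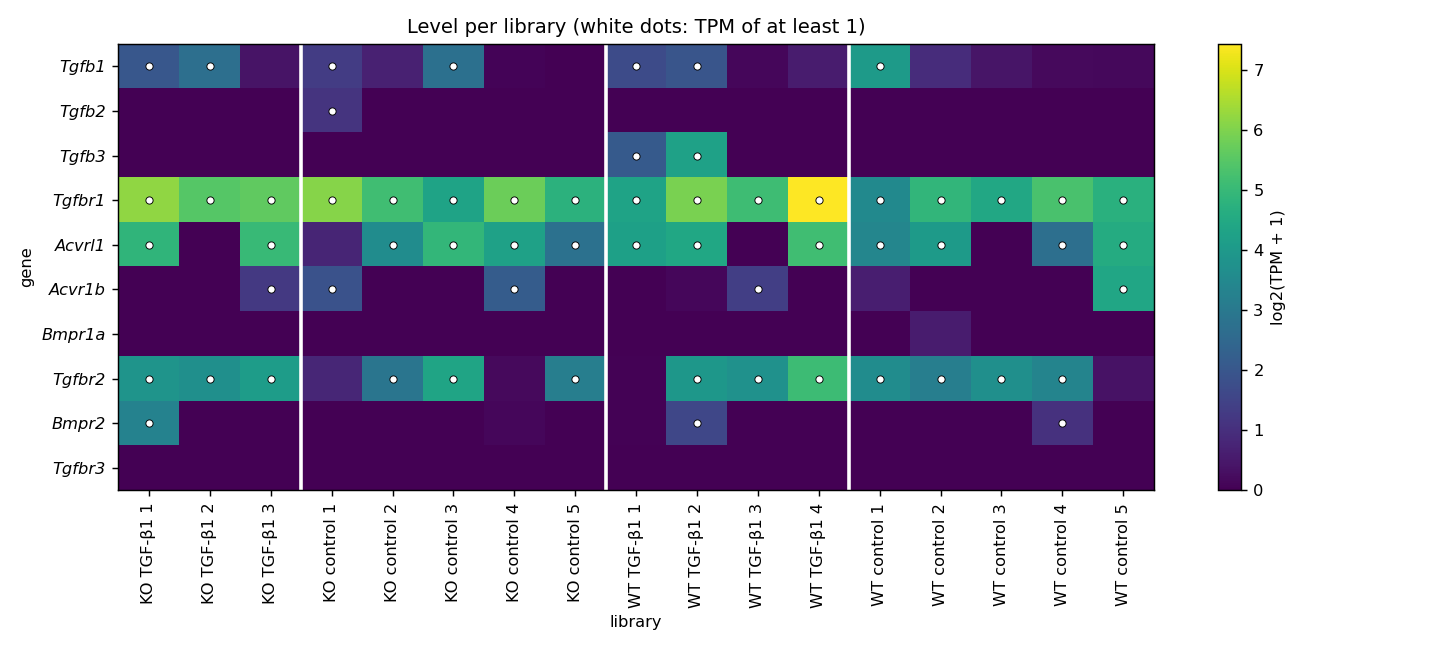
Log2(TPM + 1) (color) of the 10 genes (rows) in the 17 libraries (columns, by label), with white dots where TPM is at least 1 and white lines between groups. The Tgfbr1 row is filled throughout, the Tgfbr2 and Acvrl1 rows have 4 gaps each in different libraries apart from KO control 1, and the Tgfbr3 row is empty.

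The levels of the members were also compared with each other across libraries. Over the 17 libraries the highest Pearson correlation of log2(TPM + 1) among tested members was that of Tgfbr1 with Bmpr2 (Pearson r = 0.34, Spearman rho = 0.30), and the lowest that of Acvr1b with Tgfbr2 (r = -0.60, rho = -0.26). By Spearman rho the highest was Acvrl1 with Tgfbr2 (0.34, with r = -0.0067) and the lowest Tgfb1 with Acvr1b (-0.36, with r = -0.32). The genes most like each member were sought among 7307 genes with a mean of at least 10 TPM. For Tgfbr1 they were Ttc5 (r = 0.73), Serinc3 (0.73) and Ccnf (0.73), for Acvrl1 Odf2 (0.81), Il3ra (0.81) and Myo10 (0.80), and for Tgfbr2 Psme2b (0.84), Lair1 (0.83) and Tmem184c (0.83). The libraries share groups and differ in the number of detected genes, and these are the highest values of a wide search, given as a description. The mean of 20 cell cycle genes correlated with Tgfbr1 at r = 0.52 (rho = 0.45). The number of detected genes correlated with Tgfbr1 at r = 0.36 (rho = 0.47) and with Acvrl1 at r = 0.47 (rho = 0.58). The share of moderately expressed genes listed at 0 correlated with Acvrl1 at r = -0.47 (rho = -0.47). These pairs were picked from a wider set of members and library measures.

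The first comparison asked whether added TGF-β1 changed its own ligands and receptors. Of the 10 members, 6 passed the filter and were tested with limma, and 0 were called at an adjusted p under 0.05 in either genotype label, nor did any have an unadjusted p under 0.05. Of all tested genes, 0.00823% were called and 5.93% had an unadjusted p under 0.05 in libraries labelled KO, and 0.181% and 9.97% in libraries labelled WT. Tgfbr1 was higher with TGF-β1 in mean level under both labels, without passing. It averaged 54.2 ± 15.9 TPM (SD, n = 3) with TGF-β1 and 39.9 ± 19.8 TPM (n = 5) in control in libraries labelled KO. In libraries labelled WT it averaged 70.8 ± 68.9 TPM (n = 4) with TGF-β1 and 24.8 ± 10.3 TPM (n = 5) in control. The log2 difference was 0.54 ± 0.70 (SE) in libraries labelled KO (limma adjusted p = 0.976) and 1.11 ± 0.64 in libraries labelled WT (adjusted p = 0.607, 95% interval -0.22 to 2.45). Without WT TGF-β1 library 4 the difference in libraries labelled WT was 0.54, and with the cell cycle mean as a covariate 0.64. The cell cycle mean ran from 7.31 to 7.87 in libraries labelled KO with TGF-β1 and from 4.98 to 7.21 in KO controls (log2 scale). Under the WT label it ran from 7.33 to 7.77 with TGF-β1 and from 3.02 to 7.27 in controls. Treated and control libraries thus did not overlap in the cell cycle mean under either label. The covariate fit therefore cannot tell its part in the Tgfbr1 difference apart from that of treatment.

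Averaged over both labels, TGF-β1 minus control was 0.83 ± 0.47 (SE) for Tgfbr1 on the log2 scale (limma adjusted p = 0.557, with 0.378% of all tested genes called and 10.8% at an unadjusted p under 0.05), with an interval of -0.16 to 1.81. For Tgfbr2 it was 0.98 ± 0.85 (adjusted p = 0.745, interval -0.78 to 2.75) and for Bmpr2 0.63 ± 0.42 (adjusted p = 0.628, interval -0.26 to 1.51). A log2 difference of 1 lies within all 3 intervals. The Bmpr2 difference was 0.081 without KO TGF-β1 library 1, which held 8.70 TPM. That of Tgfbr1 was 0.54 without WT TGF-β1 library 4 and 0.37 with the cell cycle covariate, and that of Tgfbr2 was 1.51 without WT TGF-β1 library 1 and 2.34 with the covariate, none past the threshold.

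By label, Tgfbr2 differed by 1.61 ± 1.25 on the log2 scale in libraries labelled KO (limma adjusted p = 0.924, interval -0.99 to 4.21), where it averaged 13.8 ± 2.15 TPM with TGF-β1 and 6.87 ± 7.65 TPM in control. Under the WT label the difference was 0.36 ± 1.14 (adjusted p = 0.96, interval -2.03 to 2.75), with 14.9 ± 13.5 TPM with TGF-β1 and 8.16 ± 4.66 TPM in control. Acvrl1 differed by 0.03 ± 1.45 and 0.50 ± 1.33 in libraries labelled KO and WT, with intervals of -2.99 to 3.04 and -2.27 to 3.27. Tgfb1, the gene of the added ligand, differed by 0.73 ± 0.93 in libraries labelled KO (interval -1.21 to 2.67) and by -0.06 ± 0.85 in libraries labelled WT (interval -1.85 to 1.72). Acvr1b had differences of -0.39 ± 0.88 and -0.63 ± 0.81, and Bmpr2 of 1.06 ± 0.62 and 0.19 ± 0.57, in libraries labelled KO and WT. Single libraries turned several of these directions. In libraries labelled KO, Bmpr2 became -0.028 without TGF-β1 library 1, and Acvrl1 became -0.83 to -0.095 without TGF-β1 library 1 or 3 or control 1 or 5. In libraries labelled WT, Acvr1b became 0.22 and Tgfbr2 -0.26 without control 5, Tgfbr2 became -0.26 without TGF-β1 library 4, Bmpr2 -0.20 without TGF-β1 library 2, Acvrl1 -0.24 without control 3 and -0.069 without TGF-β1 library 4, and Tgfb1 0.11 to 0.66 without control 1 or TGF-β1 library 3 or 4.

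**Figure D4:**
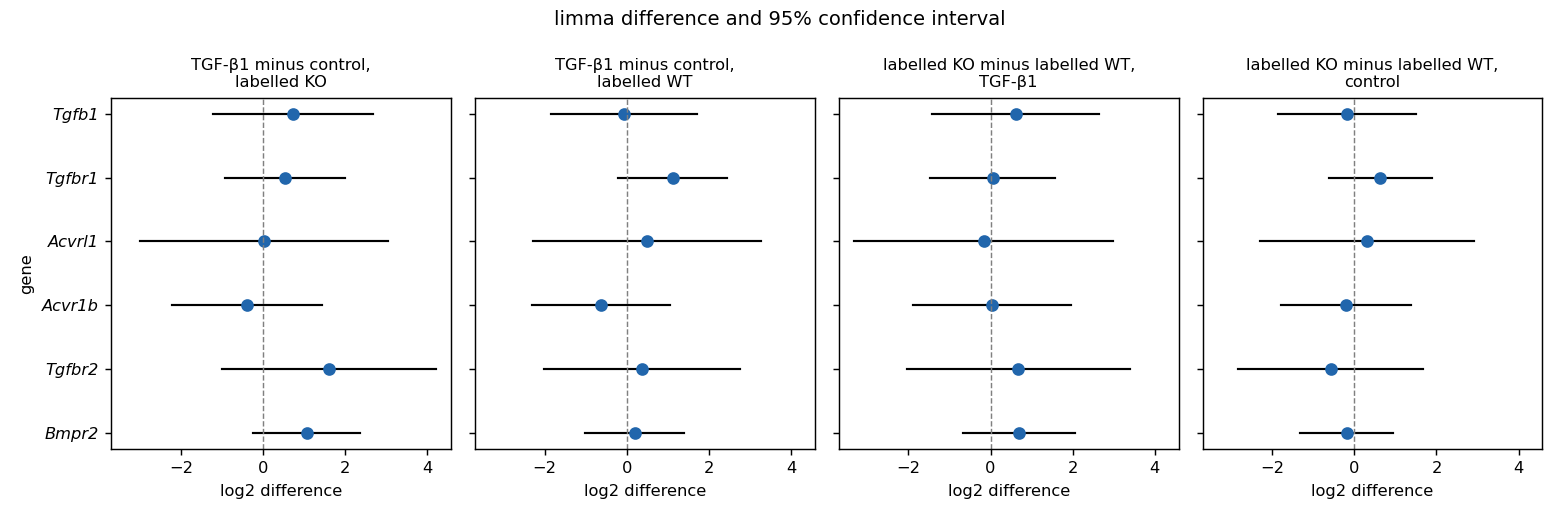
Differences in log2(TPM + 1) (x axis; point, limma estimate; line, 95% confidence interval) of the 6 tested genes (y axis) in 4 comparisons, each named by its label. Every interval includes 0, and that of Acvrl1 for TGF-β1 against control in libraries labelled KO spans -2.99 to 3.04.

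The second comparison asked whether the response depended on Smad3, which carries the signal of TGFBR1 to the nucleus. The TGF-β1 effect in libraries labelled KO minus that in libraries labelled WT called 0 of the 6 tested members, 0 at an unadjusted p under 0.05, against 0% of all tested genes called and 4.68% at that p. For Tgfbr1 the difference of effects was -0.58 ± 0.95 on the log2 scale (SE; limma adjusted p = 0.997, interval -2.55 to 1.40), and 4.6e-05 without WT TGF-β1 library 4. Within controls, KO against WT called 0 members, 0 at an unadjusted p under 0.05, against 0.148% and 5.82% of genes. Tgfbr1 averaged 39.9 ± 19.8 TPM in KO controls and 24.8 ± 10.3 TPM in WT controls, a log2 difference of 0.63 ± 0.60 (adjusted p = 0.951, interval -0.63 to 1.90). Tgfbr2 averaged 6.87 ± 7.65 TPM in KO controls and 8.16 ± 4.66 TPM in WT controls, a log2 difference of -0.57 ± 1.08 (adjusted p = 0.977, interval -2.82 to 1.68).

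With TGF-β1, KO against WT again called 0 members, 0 at an unadjusted p under 0.05, against 0.156% and 5.25% of genes. The log2 difference was 0.06 ± 0.73 for Tgfbr1 (interval -1.47 to 1.58), 0.68 ± 1.30 for Tgfbr2 (interval -2.04 to 3.39) and 0.61 ± 0.97 for Tgfb1 (interval -1.42 to 2.64), each with a limma adjusted p of 1. The Tgfbr1 value became -0.41, -0.13 and -0.17 without WT TGF-β1 library 1, WT TGF-β1 library 3 or KO TGF-β1 library 1, and the Tgfbr2 value -0.38 without WT TGF-β1 library 1. Averaged over treatments, KO against WT also called 0 members, 0 at an unadjusted p under 0.05, against 0.271% and 6.16% of genes. All these p-values measure the spread between libraries. That spread may be technical, and since the title speaks of single cells while the extraction text describes a column kit, it may also be a spread between cells.

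Other genes of the pathway were read from 5 lists, and 25 of their 57 genes passed the filter. Of these, 0 were called by limma in any of the 7 comparisons, against 0% to 0.378% of all tested genes. At an unadjusted p under 0.05 there were 0 of 25 for TGF-β1 against control in libraries labelled KO and 6 of 25 in libraries labelled WT, against 5.93% and 9.97% of all tested genes. Averaged over labels there were 2 of 25, against 10.8%. For the difference of effects there were 2 of 25, against 4.68%. For KO against WT there were 3 of 25 in controls, 0 with TGF-β1 and 1 averaged over treatments, against 5.82%, 5.25% and 6.16%. Of 14 other ligand genes, 4 ever reached TPM 1 and only Gdf15, a stress-induced member of the superfamily, passed the filter. Its level was 0, 27.4 and 6.27 TPM in libraries labelled KO with TGF-β1, and 6.65, 0, 2.41, 0 and 0 TPM in KO controls. Libraries labelled WT had 13.9, 17.1, 59.0 and 9.14 TPM with TGF-β1, and 0, 0, 0, 0.12 and 0.07 TPM in controls. The groups labelled WT did not overlap, as held in that direction for 1.80% of tested genes, while those labelled KO did overlap. The log2 difference was 1.62 ± 1.05 (SE) in libraries labelled KO (limma adjusted p = 0.883) and 4.28 ± 0.96 in libraries labelled WT (adjusted p = 0.0766, unadjusted p = 0.000254), and the difference of these effects was -2.66 ± 1.42 (adjusted p = 0.997). Averaged over labels it was 2.95 ± 0.71 (adjusted p = 0.0825), and it passed without KO TGF-β1 library 1 (0.0230) or KO control 1 (0.0405), with an adjusted p of 0.0230 to 0.634 over its 28 alternatives. Bmp2, Bmp7 and Lefty1, the next ligands by mean level, averaged 0.226, 0.156 and 0.102 TPM over the 17 libraries.

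Of 7 other receptor genes, 4 ever reached TPM 1, and Eng, Acvr1 and Acvr2a passed the filter. Eng, or endoglin, a co-receptor that works with ACVRL1 in endothelium, averaged 13.98 ± 17.5 TPM over the 17 libraries and reached TPM 1 in 9. Acvr1, the type I receptor ALK2, averaged 6.65 ± 8.62 TPM and reached TPM 1 in 9. These were 2 of 3 libraries labelled KO with TGF-β1, 4 of 5 KO controls, 3 of 4 labelled WT with TGF-β1 and 0 of 5 WT controls. The WT controls ran from 0 to 0.47 TPM. The lowest libraries of the other groups were at 0, 0 and 0.04 TPM in that order, so all groups overlapped. Mean log2(TPM + 1) of Acvr1 was 2.33 ± 2.06 (SD) in libraries labelled KO with TGF-β1 and 2.73 ± 1.79 in KO controls. It was 2.80 ± 1.98 in libraries labelled WT with TGF-β1 and 0.12 ± 0.24 in WT controls. No comparison called Acvr1. Among the 3 tested genes of this list, the lowest limma adjusted p was 0.433 for TGF-β1 against control under the WT label. For KO against WT in controls the lowest was 0.753. The activin type II receptor genes Acvr2a and Acvr2b averaged 5.02 ± 9.63 and 1.06 ± 4.34 TPM, the second almost wholly from 17.9 TPM in WT control 4. They reached TPM 1 in 6 and 1 of the 17 libraries, against 13 for Tgfbr2.

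Of 14 genes that store and release latent TGF-β, 8 ever reached TPM 1 and 6 were tested. Only Nrros, Itgav, Furin, Ltbp1 and Mmp14 had higher mean levels than the ligand gene Tgfb1, and the median of Mmp14 was 0 TPM. Ltbp4, Mmp9 and the integrin beta chain genes Itgb6 and Itgb8 were listed at 0 in all 17 libraries. Itgb3, another integrin beta chain gene, reached TPM 1 in 7. Nrros, a protein that tethers latent TGF-β1 on myeloid cells, averaged 110 ± 62.7 TPM, and Itgav, the integrin alpha-v chain that helps release it, 103 ± 50.7 TPM. Furin, the protease that cuts the precursor, averaged 18.1 ± 9.28 TPM and Ltbp1, a latent TGF-β binding protein, 7.70 ± 4.99 TPM. Nrros stood at 172, 198 and 268 TPM in libraries labelled KO with TGF-β1, and at 117, 60.97, 98.8, 89.1 and 155 TPM in KO controls. The libraries labelled WT held 48.9, 68.2, 104 and 118 TPM with TGF-β1, and 86.5, 95.3, 123, 0.13 and 60.98 TPM in controls. The KO libraries with TGF-β1 lay above all KO controls and above all WT libraries with TGF-β1, as held in that direction for 3.05% and 3.15% of tested genes. Neither difference passed: it was 1.07 ± 1.03 (SE, log2; limma adjusted p = 0.954) against KO controls and 1.37 ± 1.08 (adjusted p = 1) against WT with TGF-β1.

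Regulators that act on the receptors varied in detection, with 14 of 15 genes tested and 4 at TPM 1 or more in all 17 libraries. Passing the filter needed TPM 1 in only 3 libraries. Hgs and Usp4 reached it in 16, Map3k7 in 12, Tgfbrap1 in 10, and Smurf2 and Nedd4l in 9 each. Bambi, Tab1 and Traf6 reached it in 8 each, Smurf1 in 7 and Zfyve9 in 0. Fkbp1a, which encodes FKBP12, a protein that binds the type I receptor and keeps it inactive without ligand, averaged 329 ± 120 TPM, the endocytic adaptor Dab2 264 ± 157 TPM, the receptor-binding protein gene Strap 85.3 ± 35.5 TPM and the endosomal sorting gene Hgs 54.3 ± 35.5 TPM. Fkbp1a stood at 357, 145 and 298 TPM in libraries labelled KO with TGF-β1, and at 514, 385, 447, 428 and 298 TPM in KO controls. In libraries labelled WT it stood at 168, 171, 294 and 173 TPM with TGF-β1, and at 389, 296, 548, 299 and 378 TPM in controls. The groups labelled WT did not overlap, as held in that direction for 0.987% of tested genes, and those labelled KO overlapped. Its log2 difference was -0.71 ± 0.34 (SE) in libraries labelled KO (limma adjusted p = 0.832), -0.92 ± 0.31 in libraries labelled WT (adjusted p = 0.307) and -0.82 ± 0.23 over both labels (adjusted p = 0.151, unadjusted p = 0.00219). Over the 14 tested regulators the median log2 difference was -0.24 in libraries labelled KO and 0.52 in libraries labelled WT, against 0.07 and 0.09 over all tested genes.

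Ligand traps were mostly below TPM 1. Of 7, only Fstl1, a secreted follistatin-like protein, ever reached TPM 1, with a median of 3.78 TPM and a single value of 542 TPM in KO control 5. The next by mean level, Grem1, Bgn and Fstl3, never exceeded 0.25 TPM.

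**Figure D5:**
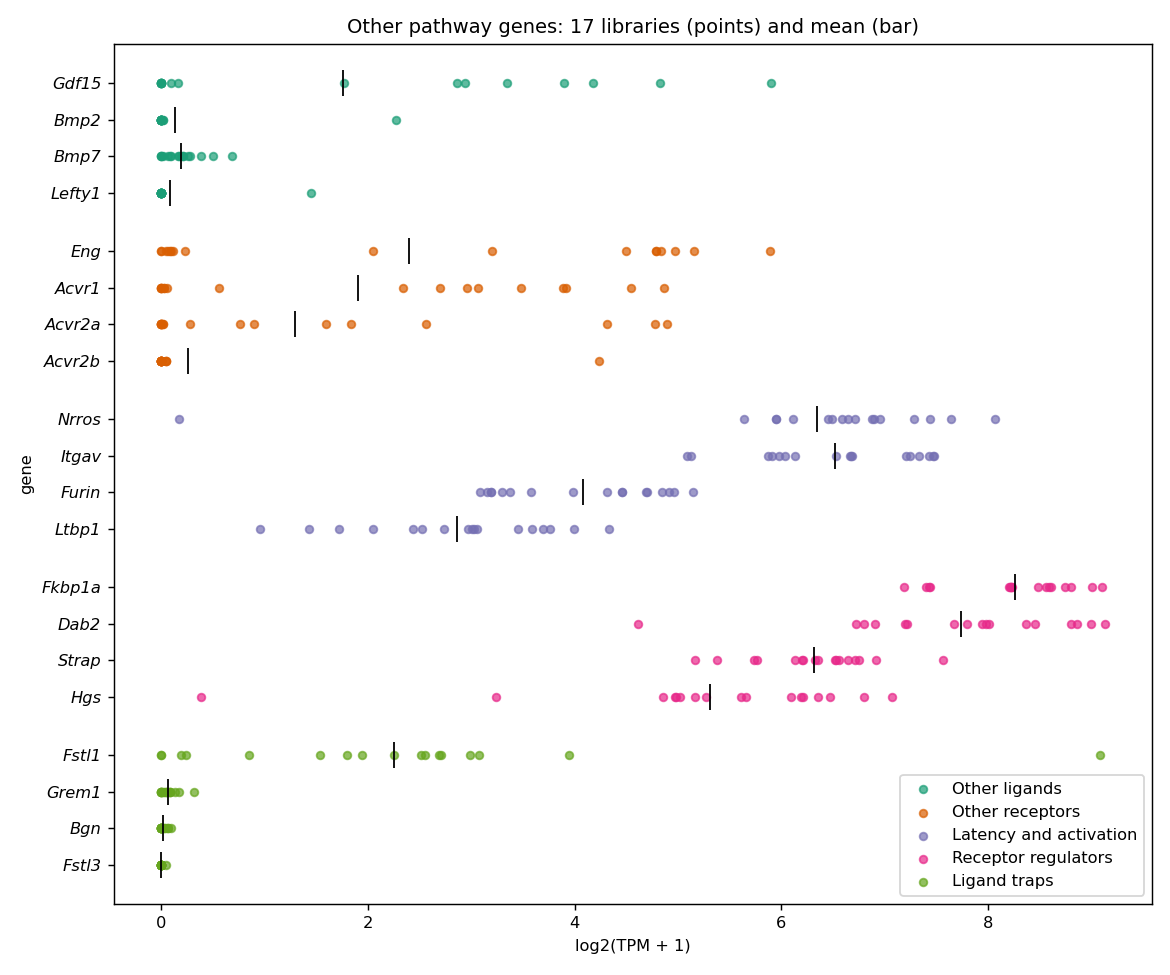
Log2(TPM + 1) (x axis) of the up to 4 highest genes of each of 5 pathway lists (y axis, colored by list), with 1 point per library and a black bar for the mean of log2(TPM + 1) over 17 libraries. The bars of Fkbp1a, Dab2, Itgav and Nrros lie at 8.26, 7.74, 6.52 and 6.35, while the other ligands and the traps lie mostly near 0.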

How the data were processed

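The deposited values are TPM per gene for 17 libraries of SMART-seq2 cDNA. Per the submitters' processing notes, the authors used FastQC, Trim Galore, RSEM and the mouse build mm9; versions are not given in the sources used here. TPM corrects for gene length and keeps no depth, so no counting interval or detection floor was computed. Gene symbols came from GENCODE vM21, by gene ID, and promoter sequences from RefSeq. The analysis used log2(TPM + 1), a scale on which differences of low genes are understated. The 12158 genes that reached TPM 1 in 3 or more libraries entered limma 3.58.1 in R 4.3.3 (eBayes with trend), in 1 fit over the 4 groups, with Benjamini-Hochberg adjustment over all of them and calls under 0.05; the script was tested on simulated data. Group labels came from the titles. The members and lists were chosen with earlier results of these data known. The text names every member, list genes called or among the 4 highest by mean, and the 3 most alike genes of members with a mean of at least 10 TPM. Lower list genes are named where they show how detection varied within a list. Alternatives were other pseudocounts, filters, scalings, covariates, a replicate block and leaving out libraries.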

Additional observations from a re-analysis of the deposited data

Results flagged for a closer look

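In 10 of 22 sets of gene and group with 4 or 5 libraries and any value above 0, a single library stood far from the others on the log2(TPM + 1) scale. Chance flags about 1 in 20 groups, and a gene listed at 0 in all but 1 library is flagged by construction, so most of these describe sparse genes. In WT control 1, Tgfb1 was at 15.5 TPM, with the next control at 0.91. In WT control 5, Tgfbr2 was at 0.29 TPM while the other WT controls started at 8.08, and Acvr1b was at 20.1 TPM with the next at 0.53. WT TGF-β1 library 3 held Acvr1b at 1.61 TPM. Bmpr2 stood apart at 0.09 TPM in KO control 4, 2.00 TPM in WT TGF-β1 library 2 and 1.08 TPM in WT control 4. Tgfb2 stood apart at 1.15 TPM in KO control 1 and 0.02 TPM in WT control 4, and Bmpr1a at 0.49 TPM in WT control 2.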

How the results depend on the processing

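All 166 recomputed counts of called members, over 7 comparisons, stayed at 0, the fits with a replicate block included, and at most 1 member had an unadjusted p under 0.05. Among the 28 member differences recomputed, the lowest limma adjusted p was 0.426. Libraries with the same replicate number did not deviate alike from their group means (22 pairs, correlation of deviations -0.08 to 0.02). Noise between libraries could hide a shared animal or culture, so whether replicate numbers pair libraries is not known. Of 28 member differences recomputed, 9 kept their direction throughout, among them Tgfbr1 for TGF-β1 against control under both labels. Averaged differences other than those of Tgfbr1, Tgfbr2 and Bmpr2, and differences of effects other than that of Tgfbr1, were not run, and the fit over the compared groups alone was run for the 4 simple comparisons only. All values below are log2 differences that missed the threshold, and the cause of their reversals was not tested.

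For TGF-β1 against control in libraries labelled KO, Acvrl1 became -0.80 with pseudocount 0.1, -0.094 with upper-quartile scaling, -0.14 with quantile normalization, -0.21 with the number of detected genes as covariate and -0.57 with the cell cycle mean as covariate, and Acvr1b became 0.0022 with the replicate block. Under the WT label, Tgfb1 became 0.21 with pseudocount 0.1 and 0.37 with the cell cycle covariate, Acvrl1 -0.13 with the detected-gene and -0.16 with the cell cycle covariate, Bmpr2 -0.35 with quantile normalization and -0.026 with the detected-gene covariate, and Tgfbr2 -0.37 without the 6 libraries with many zeros. For KO against WT with TGF-β1, Tgfbr1 became -0.0024 with pseudocount 10 and -0.046 with the detected-gene covariate. Acvr1b became -0.28 with quantile normalization, -0.11 with the detected-gene and -0.017 with the cell cycle covariate, and Acvrl1 0.011 with pseudocount 10, 0.14 with the replicate block and 0.33 without the 6 libraries, where Tgfb1 became -0.20. In controls, Acvrl1 became -0.63 with the detected-gene covariate and -0.57 without the 6 libraries, where Acvr1b became 0.70 and Bmpr2 0.020.

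For TGF-β1 against control in libraries labelled KO, leaving out 1 library at a time gave Acvrl1 from -0.83 to 1.67 and Bmpr2 from -0.028 to 1.61. In libraries labelled WT, leaving out 1 library at a time gave Tgfb1 from -0.35 to 0.66, Acvr1b from -0.96 to 0.22, Acvrl1 from -0.24 to 1.65, Tgfbr2 from -0.26 to 1.41 and Bmpr2 from -0.20 to 0.40. For the difference of effects, leaving out 1 library at a time gave Tgfbr1 from -1.04 to 4.6e-05. For KO against WT with TGF-β1, leaving out 1 library at a time gave Tgfbr1 from -0.41 to 0.63, Acvr1b from -0.38 to 0.37, Acvrl1 from -1.32 to 1.48, Tgfbr2 from -0.38 to 1.30 and Bmpr2 from -0.41 to 1.23. In controls, leaving out 1 library at a time gave Tgfb1 from -0.63 to 0.54, Acvr1b from -0.54 to 0.64, Acvrl1 from -0.43 to 0.93 and Bmpr2 from -0.24 to 0.021.

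At thresholds above 0 and of TPM 5, chosen after seeing the data, Tgfbr2 was found in 17 and 13 libraries, Acvrl1 in 14 and 13, Tgfb1 in 17 and 3, Acvr1b in 8 and 1, Bmpr2 in 7 and 1, Tgfb2 in 3 and 0, Tgfb3 in 2 and 1, and Bmpr1a in 1 and 0. Detection of Tgfb1, Acvr1b, Bmpr2, Tgfb2, Tgfb3 and Bmpr1a thus moved with the threshold, and that of Tgfbr1, Tgfbr2, Acvrl1 and Tgfbr3 did not move by more than 1.5 times. Gdf15, Fkbp1a and Nrros differences kept their direction under every alternative run. Depth is unknown, so no detection limit can be given for a value of 0.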
